A study of Homo sapiens with 9 samples.

Results

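The genes described here encode the proteins that bring iron and other divalent metals into a cell, carry iron out again, and sense how much of it the cell holds. They were chosen by name, as 10 of the 36018 genes in the count tables: the transferrin receptor TFRC, the divalent metal transporter SLC11A2, the ZIP carriers SLC39A14 and SLC39A8, the iron exporter SLC40A1 (ferroportin), the endosomal reductase STEAP3, the iron regulatory proteins IREB2 and ACO1, the ferritin receptor NCOA4 and the iron-sensing ubiquitin ligase subunit FBXL5. The rule uses names and no expression value, though earlier results of these data were known when it was written, and all 10 had enough counts to be tested. RNA sequencing was done on HCT-15, an established human colorectal adenocarcinoma line, labelled WT in every group.

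There were 3 libraries in each of 3 groups. The control cells had no treatment. The CoCl2-tolerant cells had been grown in rising amounts of cobalt chloride until they tolerated it, cobalt being a divalent metal that also blocks the iron-dependent oxygen sensors of the cell. The low-glucose-tolerant cells had been selected in the same stepwise manner for growth in low glucose. Each tolerant group is a single derived line, so a difference from control belongs to that line as it was grown, and selection of cells and response of cells cannot be told apart. The labels give no concentrations or durations and do not state whether the agent was present at harvest. Nothing in them tells whether a group's libraries are separate cultures, so every p-value measures only how far these libraries spread, and that spread may be technical. A brefeldin A-tolerant line named in the labels was not analysed here.

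Iron bound to transferrin enters with the transferrin receptor, is reduced in the endosome by a STEAP reductase, and crosses into the cytosol through a divalent metal transporter. Iron that is not bound to transferrin can enter directly through ZIP carriers, which also take zinc, manganese and cadmium, while ferroportin is the known exporter of iron from mammalian cells. When iron is scarce, the iron regulatory proteins IRP1 (the gene ACO1) and IRP2 (the gene IREB2) bind a hairpin called the iron-responsive element: in the 3′ UTR of TFRC this protects the transcript from decay, and in the 5′ UTR of ferritin and ferroportin transcripts it holds back translation.

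Matches to the letters and pairing of the element are shown first. A search of the annotated UTRs for an unpaired C, 5 bases, the loop CAGTGN and 5 bases pairing with the first 5 (GT pairs allowed) found a match in 2 of the 10 genes, TFRC and SLC40A1. TFRC held 4 in its 3′ UTR of 2658 bases, on the minus strand of chromosome 3 (GRCh38), and SLC40A1 held 1 in its 5′ UTR of 427 bases, on the minus strand of chromosome 2. They are printed 5′ to 3′ in transcript direction beside those of the ferritin genes FTH1 (chromosome 11, minus strand) and FTL (chromosome 19, plus strand), with 3 flanking bases on each side of the 17-base element, whose coordinates are given, and with the loop in capitals:
TFRC chr3:196050985-196051001: tatcggaagCAGTGCcttccata
TFRC chr3:196050581-196050597: tatcgggagCAGTGTcttccata
TFRC chr3:196050516-196050532: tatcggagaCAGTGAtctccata
TFRC chr3:196050469-196050485: tatcgggaaCAGTGTttcccata
SLC40A1 chr2:189580667-189580683: cttcagctaCAGTGTtagctaag
FTH1 chr11:61967580-61967596: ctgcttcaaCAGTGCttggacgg
FTL chr19:48965341-48965357: ttgcttcaaCAGTGTttggacgg

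Such matches are rare in the annotation. Of 18931 genes with a 5′ UTR, 31 (0.164%) held at least 1, and of 19053 genes with a 3′ UTR, 128 (0.672%) held at least 1 and 6 held 2 or more. Among 3′ UTRs of similar length to that of TFRC the share was 0.758%, and among 5′ UTRs of similar length to that of SLC40A1 it was 0.249%. In SLC11A2, for which a transcript with such an element is known, these letters were not found in the UTRs searched. The search also misses an element with another loop or a mismatched stem, so the matches in TFRC may not be all of its elements. A match describes the annotated sequence and says nothing of binding in these cells.

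The libraries held 25178615 to 32674687 counts each, and 17902 genes were tested. Levels are given as CPM, the count per 1000000 counts of tested genes in the library after scaling by trimmed mean of M-values (TMM). The share of counts from mitochondrially encoded genes was 8.08 to 9.80% for control, 4.64 to 6.67% for the CoCl2-tolerant line and 4.74 to 5.20% for the low-glucose-tolerant line, and the members' calls were the same in a fit without those genes. Pairs of libraries of a group differed by 2.31 to 6.96 times the sampling variance in control (chi-square per degree of freedom), 8.42 to 33.0 times in the CoCl2-tolerant and 27.5 to 74.9 times in the low-glucose-tolerant line. The labelled colorectal origin had little support among intestinal markers: 10 of the 13 found were under 1 CPM in every group, and CDX1 and CDX2, transcription factors of the intestinal epithelium, had 0 counts in control and CoCl2-tolerant libraries. All 5 general epithelial markers were present, with sums of 1368 to 1403 CPM for control, 1382 to 1679 CPM for CoCl2-tolerant and 2504 to 3412 CPM for low-glucose-tolerant libraries. The sums were mostly keratins and hid unequal changes: in the CoCl2-tolerant line CDH1 (E-cadherin) fell from 17.8 to 1.41 CPM (log2 fold change -3.66; edgeR's adjusted p = 3.38e-09), EPCAM (-1.33) and KRT8 (-0.41) were also called lower and KRT19 (0.73) higher, and in the low-glucose-tolerant line CDH1 (-1.13) was called lower and KRT8 (0.98), KRT18 (2.42) and KRT19 (0.78) higher. Fibroblast markers summed to 2493 to 2534, 644 to 751 and 156 to 196 CPM in the same order, nearly all of it COL1A1 and THY1, with DCN and LUM under 1 CPM in every group. At most 1 of 7 leukocyte markers reached 1 CPM in any group, and of 4 erythroid markers found, only the receptor gene EPOR did. The part of these marker differences in the results below was not tested.

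**Figure D1:**
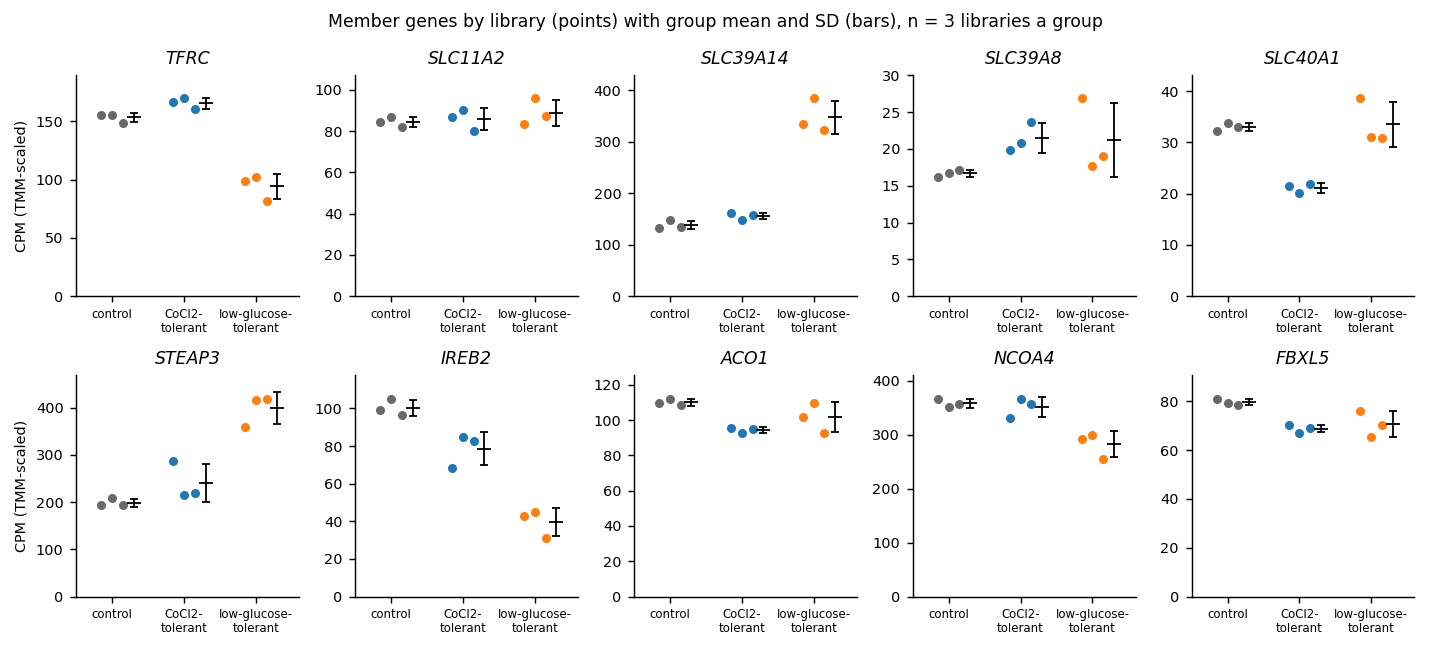
Level of each of the 10 genes in CPM (y axis, from 0) in every library (points) of the control, CoCl2-tolerant and low-glucose-tolerant groups (x axis), with the group mean and SD as a bar beside the points. The low-glucose-tolerant points stand clear of both other groups for TFRC, SLC39A14, STEAP3, IREB2 and NCOA4, and the CoCl2-tolerant points for SLC40A1.

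The first receptor of the uptake route, TFRC, was lower in the low-glucose-tolerant line and close to control in the CoCl2-tolerant line. TFRC (ENSG00000072274, chromosome 3, 196027183 to 196082189) had 156, 156 and 149 CPM in control libraries 1 to 3, 166, 169.9 and 161 CPM in CoCl2-tolerant libraries 1 to 3, and 98.9, 102 and 81.9 CPM in low-glucose-tolerant libraries 1 to 3. All low-glucose-tolerant libraries lay below all others, and the CoCl2-tolerant libraries lay above the control libraries without passing the test. The low-glucose-tolerant mean was 94.3 ± 10.9 CPM (SD, n = 3) against 153 ± 3.79 CPM (SD, n = 3) in control, a log2 fold change of -0.70 ± 0.11 (SE), or 1.63-fold lower (adjusted p = 3.65e-05, edgeR's quasi-likelihood test). In CoCl2-tolerant cells the log2 fold change against control was 0.11 ± 0.10 (SE; edgeR's adjusted p = 0.437). Set directly against each other, the CoCl2-tolerant line had 1.76-fold more TFRC RNA than the low-glucose-tolerant line (edgeR's adjusted p = 1.21e-05). In bulk RNA such as this, fewer cells of a type and less RNA per cell cannot be told apart.

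STEAP3, the reductase that turns endosomal ferric iron into ferrous iron, went the other way in the low-glucose-tolerant line. STEAP3 (ENSG00000115107, chromosome 2, 119223831 to 119265652) had 195, 208 and 193 CPM in control libraries, 287, 215 and 219 CPM in CoCl2-tolerant libraries and 359, 417 and 419 CPM in low-glucose-tolerant libraries. The 3 groups did not overlap, and CoCl2-tolerant library 1 stood well above the other two of its group. The rise in the low-glucose-tolerant line was 2.01-fold, a log2 fold change of 1.004 ± 0.12 (SE; edgeR's adjusted p = 5.65e-06). Against control, the CoCl2-tolerant log2 fold change was 0.28 ± 0.12 (SE; edgeR's adjusted p = 0.0952), or 0.13 without its library 1, and the low-glucose-tolerant line stood 1.66-fold above the CoCl2-tolerant line (edgeR's adjusted p = 1.41e-04). In the annotation, 10.96% of STEAP3 exon sequence is shared with the antisense gene STEAP3-AS1, which was at 1.03 ± 0.0837 CPM in control, 0.749 ± 0.255 CPM in CoCl2-tolerant and 0.510 ± 0.0939 CPM in low-glucose-tolerant libraries (SD, n = 3 each). The labels do not say whether the counting used strand, so reads from the shared stretch cannot be assigned to either gene with certainty.

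SLC11A2 (DMT1), which carries the reduced iron out of the endosome, passed in no comparison. SLC11A2 (ENSG00000110911, chromosome 12, 50979401 to 51028566) had 84.3, 86.7 and 82.1 CPM in control, 86.8, 90.5 and 79.9 CPM in CoCl2-tolerant and 83.7, 96.0 and 87.1 CPM in low-glucose-tolerant libraries, so the groups overlapped throughout. Its log2 fold change against control was 0.02, with 2 SE on either side reaching from -0.18 to 0.23, in the CoCl2-tolerant line and 0.08, reaching from -0.13 to 0.28, in the low-glucose-tolerant line (edgeR's adjusted p = 0.877 and 0.516). The sign of the low-glucose-tolerant value turned with scaling by library totals (-0.03), as did that of the direct difference, from -0.05 to 0.04.

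The ZIP carrier SLC39A14 showed the largest rise of the 10 genes. SLC39A14 (ZIP14, ENSG00000104635, chromosome 8) is a plasma membrane carrier of iron, manganese and zinc. It had 133, 147 and 135 CPM in control, 161, 149 and 157 CPM in CoCl2-tolerant and 335, 384 and 323 CPM in low-glucose-tolerant libraries. Every low-glucose-tolerant library was above every other library by a wide margin, whereas the lowest CoCl2-tolerant library lay just above the highest control library. The low-glucose-tolerant mean was 347 ± 32.6 CPM (SD, n = 3) against 139 ± 7.60 CPM (SD, n = 3) in control, a 2.51-fold rise with a log2 fold change of 1.33 ± 0.10 (SE; edgeR's adjusted p = 5.94e-08). The CoCl2-tolerant log2 fold change was 0.17 ± 0.10 (SE; edgeR's adjusted p = 0.230), and the low-glucose-tolerant line was 2.24-fold above the CoCl2-tolerant line (edgeR's adjusted p = 3.01e-07).

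Its close relative SLC39A8 (ZIP8, ENSG00000138821, chromosome 4, 102251041 to 102431258), also a carrier of zinc, manganese, cadmium and iron, was expressed far less. SLC39A8 had 16.1, 16.7 and 17.2 CPM in control, 19.9, 20.8 and 23.7 CPM in CoCl2-tolerant and 26.9, 17.6 and 19.1 CPM in low-glucose-tolerant libraries. All 6 libraries of the tolerant lines were above the 3 control libraries, and low-glucose-tolerant library 1 stood apart from the other two of its group. The log2 fold change against control was 0.36 ± 0.15 (SE; edgeR's adjusted p = 0.0707) in the CoCl2-tolerant line and 0.35 ± 0.15 (SE; edgeR's adjusted p = 0.0514) in the low-glucose-tolerant line, so neither passed. The second value depended on single libraries and on the filter: without low-glucose-tolerant library 1 it was 0.15, and it passed the threshold without CoCl2-tolerant library 1 or without low-glucose-tolerant library 2 or 3, and with no filter on low counts (0.37), with adjusted p from 0.00916 to 0.292 over the 17 alternatives run. In the annotation, 3.04% of SLC39A8 exon sequence is shared with the same-strand gene AC098487.1.

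Ferroportin, SLC40A1, was the member called in the CoCl2-tolerant line. SLC40A1 (ENSG00000138449, chromosome 2, 189560579 to 189583758) had 32.3, 33.9 and 33.1 CPM in control, 21.5, 20.1 and 21.8 CPM in CoCl2-tolerant and 38.6, 31.1 and 30.9 CPM in low-glucose-tolerant libraries. The CoCl2-tolerant libraries lay together below all others, and the low-glucose-tolerant libraries spread on both sides of control. The fall in the CoCl2-tolerant line was 1.56-fold, from 33.1 ± 0.786 to 21.1 ± 0.916 CPM (SD, n = 3 each), a log2 fold change of -0.65 ± 0.12 (SE; edgeR's adjusted p = 7.19e-04). It passed the test under all 17 alternatives, with log2 fold changes from -0.67 to -0.61. In the low-glucose-tolerant line the log2 fold change was 0.02 ± 0.11 (SE; edgeR's adjusted p = 0.881), whose sign turned with scaling by library totals (-0.08) and without low-glucose-tolerant library 1 (-0.08). The direct difference between the tolerant lines was a log2 fold change of -0.67 ± 0.12 (SE; edgeR's adjusted p = 1.75e-04), lower in CoCl2-tolerant cells.

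The iron sensors differed from each other. IREB2 (ENSG00000136381, chromosome 15, 78437431 to 78501456) encodes IRP2, which is degraded when iron is plentiful. It had 99.0, 105 and 96.5 CPM in control, 68.6, 84.6 and 82.9 CPM in CoCl2-tolerant and 42.7, 45.0 and 31.1 CPM in low-glucose-tolerant libraries. The 3 groups did not overlap, with control highest and the low-glucose-tolerant line lowest. The low-glucose-tolerant fall was 2.53-fold, from 100.2 ± 4.50 to 39.6 ± 7.45 CPM (SD, n = 3 each), a log2 fold change of -1.34 ± 0.14 (SE; edgeR's adjusted p = 9.60e-07), the largest fall of the set. The CoCl2-tolerant log2 fold change was -0.35 ± 0.14 (SE) and missed the threshold (edgeR's adjusted p = 0.0588, and 0.00648 to 0.190 over the 17 alternatives). Between the tolerant lines IREB2 was 1.99-fold higher in CoCl2-tolerant cells (edgeR's adjusted p = 2.34e-05).

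ACO1, which encodes IRP1, the protein that is a cytosolic aconitase while it holds an iron-sulphur cluster and an RNA-binding protein without it, passed in no comparison either. ACO1 (ENSG00000122729, chromosome 9, 32384603 to 32454769) had 109.7, 112 and 108 CPM in control, 95.6, 92.7 and 94.9 CPM in CoCl2-tolerant and 102, 109.8 and 92.8 CPM in low-glucose-tolerant libraries. The CoCl2-tolerant libraries were all below control, and the low-glucose-tolerant libraries overlapped both groups. The log2 fold change was -0.22 ± 0.10 in the CoCl2-tolerant and -0.12 ± 0.10 in the low-glucose-tolerant line (SE; edgeR's adjusted p = 0.0939 and 0.301).

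NCOA4, the receptor that takes ferritin to the lysosome so that its iron is released, was the most highly expressed of the 10 genes per length of annotated exon in control. NCOA4 (ENSG00000266412, chromosome 10, 46005088 to 46030714) had 367, 351 and 357 CPM in control, 331, 367 and 357 CPM in CoCl2-tolerant and 293, 300.2 and 255 CPM in low-glucose-tolerant libraries. The first and second groups overlapped and the low-glucose-tolerant libraries lay below both. The low-glucose-tolerant fall was 1.27-fold, a log2 fold change of -0.34 ± 0.10 (SE; edgeR's adjusted p = 0.00792), while the CoCl2-tolerant value was -0.03 ± 0.10 (SE; edgeR's adjusted p = 0.858). The direct difference of 0.32 ± 0.10 (SE; edgeR's adjusted p = 0.0140) was lost without CoCl2-tolerant library 2 or 3 and without low-glucose-tolerant library 3, where the log2 fold change was 0.28, 0.30 and 0.24, and with no filter on low counts, where it was 0.29 (adjusted p from 0.00275 to 0.0591 over the 17 alternatives). The pseudogenes NCOA4P2, NCOA4P3 and NCOA4P4 had means of at most 0.0251 CPM in any group.

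FBXL5, which holds an iron-binding domain and marks IRP2 for degradation when iron is present, was slightly below control in both tolerant lines without passing the test. FBXL5 (ENSG00000118564, chromosome 4, 15604539 to 15681679) had 81.2, 79.4 and 78.6 CPM in control, 70.2, 67.2 and 69.0 CPM in CoCl2-tolerant and 75.9, 65.3 and 70.5 CPM in low-glucose-tolerant libraries. No library of a tolerant line reached the lowest control library. The log2 fold change was -0.21 ± 0.10 in the CoCl2-tolerant and -0.18 ± 0.10 in the low-glucose-tolerant line (SE; edgeR's adjusted p = 0.106 and 0.123). The low-glucose-tolerant value passed with a filter at 5 CPM in 3 libraries (-0.27) and with scaling by library totals (-0.28). The median log2 fold change of all tested genes was -0.01 in the main fit, 0.02 with that filter and -0.11 with library totals. In the annotation, 0.394% of FBXL5 exon sequence is shared with FAM200B on the opposite strand, at 11.8, 13.8 and 9.77 CPM on average in the 3 groups.

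Counted over the set, 1 of 10 genes passed in the CoCl2-tolerant line against control (SLC40A1, lower), where 36.1% of all tested genes did. Of all genes 17.9% rose and 18.2% fell. For 8 of 10 members (all but SLC11A2 and NCOA4) no control library lay within the range of the CoCl2-tolerant ones or the reverse, which held for 57.2% of all genes. The count of 1 changed with the libraries and genes that entered the fit: with only the 2 groups compared, 6 of 10 passed (ACO1, FBXL5, IREB2, SLC39A8, SLC40A1 and STEAP3) against 49.4% of all genes, and without low-glucose-tolerant library 2, 5 of 10 passed against 43.3%. It was 2 of 10 without low-glucose-tolerant library 1 (SLC39A8 and SLC40A1; 36.8% of all genes) or 3 (IREB2 and SLC40A1; 39.5%), and IREB2 also passed with no filter on low counts (18.9% of all genes) and with a filter at 5 CPM (40.6%). The members' median absolute log2 fold change was 0.22, against 0.35 over all tested genes.

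In the low-glucose-tolerant line 5 of 10 genes passed against control, where 69.2% of all tested genes did: SLC39A14 and STEAP3 rose (34.6% of all genes rose) and TFRC, IREB2 and NCOA4 fell (34.6% of all genes fell). A change of at least 2-fold was called for 3 of 10, SLC39A14, STEAP3 and IREB2, where 36.7% of all genes had one. The libraries did not overlap for 7 of 10, against 73.3% of all genes, and the median absolute log2 fold change was 0.34 against 0.74. The same 5 genes, and SLC40A1 with them, made up the 6 of 10 that passed between the tolerant lines, where 63.9% of all genes passed. TFRC, IREB2 and NCOA4 were higher in CoCl2-tolerant cells (31.9% of all genes were) and SLC39A14, SLC40A1 and STEAP3 lower (32.0%), and the libraries of the same 6 did not overlap (63.1% of all genes). The comparisons with control share the 3 control libraries.

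**Figure D2:**
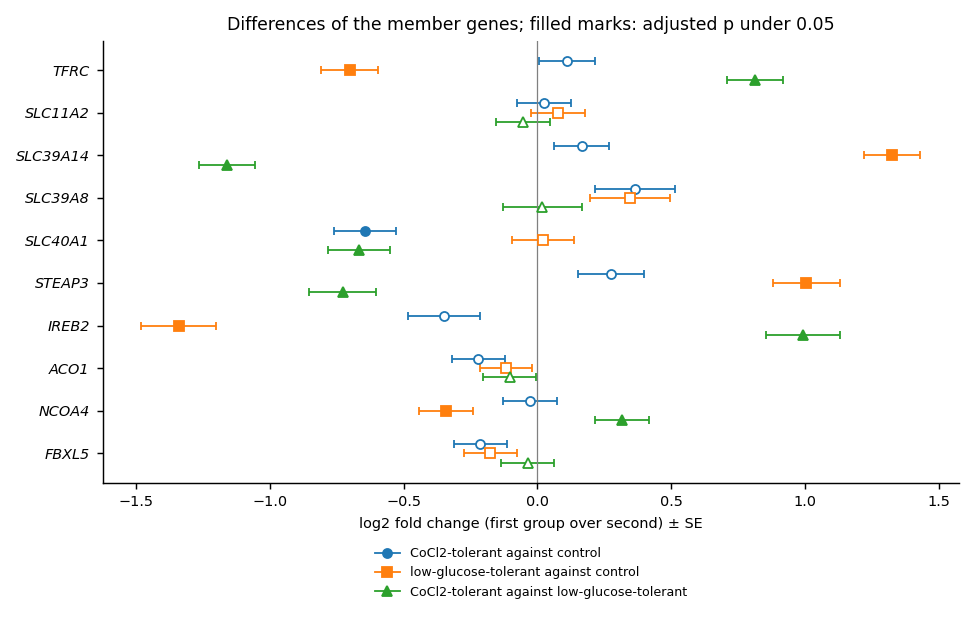
Log2 fold change ± SE (x axis) of the 10 genes (y axis) in the CoCl2-tolerant line against control (circles), the low-glucose-tolerant line against control (squares) and the CoCl2-tolerant against the low-glucose-tolerant line (triangles), filled where the adjusted p is under 0.05. SLC40A1 carries the only filled circle, and the filled squares run from -1.34 for IREB2 to 1.33 for SLC39A14.

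Levels can be ordered between genes only per length, as CPM per kilobase of annotated exon. The length joins the exons of all annotated transcripts of a gene, and can be longer than the transcripts present. Which transcripts these cells used was not determined, so the order holds for these lengths only. In control, NCOA4 led with 87.9 ± 1.996 CPM per kb, followed by STEAP3 at 43.5 ± 1.75, SLC39A14 at 19.96 ± 1.10 and TFRC at 19.5 ± 0.481 (SD, n = 3 each). The values of SLC39A14 and TFRC overlapped between libraries in control and in the CoCl2-tolerant line. FBXL5 at 17.4, ACO1 at 14.6, IREB2 at 9.28, SLC11A2 at 8.32, SLC40A1 at 7.64 and SLC39A8 at 2.57 CPM per kb followed. At these lengths the libraries of each did not overlap with those of the next. The order was different at the top in the low-glucose-tolerant line: STEAP3 at 87.3 ± 7.48 CPM per kb stood above NCOA4 at 69.3 ± 5.89, then SLC39A14 at 50.0 ± 4.70 (SD, n = 3 each). FBXL5 at 15.4, ACO1 at 13.4 and TFRC at 11.96 CPM per kb overlapped with their neighbours in that order, as did SLC11A2 at 8.77 and SLC40A1 at 7.75 CPM per kb, and IREB2, at 3.66 ± 0.690, overlapped with SLC39A8, at 3.27 ± 0.767 CPM per kb (SD, n = 3 each).

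**Figure D3:**
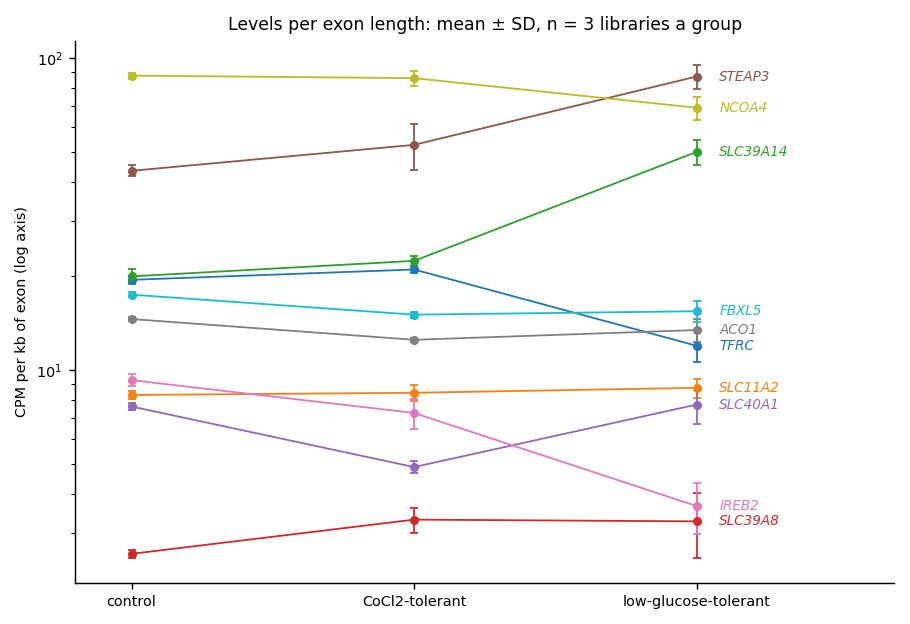
Mean level ± SD (n = 3 libraries) of the 10 genes in CPM per kilobase of annotated exon (y axis, log scale) in the control, CoCl2-tolerant and low-glucose-tolerant groups (x axis), with lines joining the groups of a gene. STEAP3 crosses NCOA4 in the low-glucose-tolerant group, and IREB2 drops from 9.28 in control to 3.66 CPM per kb.

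Ratios of 2 genes within a library do not depend on scaling between libraries, and 4 were fixed: receptor to exporter, the iron regulatory proteins, the ZIP carriers, and ferritin receptor to ligase. With 3 against 3 libraries the exact permutation test allows no p below 0.1. The ratio of TFRC to SLC40A1 counts was 4.82, 4.59 and 4.51 in control, 7.74, 8.45 and 7.35 in CoCl2-tolerant and 2.56, 3.28 and 2.65 in low-glucose-tolerant libraries. The ratio of receptor to exporter RNA was thus higher in every CoCl2-tolerant library and lower in every low-glucose-tolerant library than in any control library. On the log2 scale it differed from control by 0.76 and -0.72 (two-sided exact permutation p = 0.1 for both, the smallest possible).

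IREB2 to ACO1 was 0.903, 0.938 and 0.891 in control, 0.717, 0.912 and 0.874 in CoCl2-tolerant and 0.419, 0.410 and 0.335 in low-glucose-tolerant libraries. Only the low-glucose-tolerant line stood clear of control, by -1.24 on the log2 scale (two-sided exact permutation p = 0.1), and the CoCl2-tolerant difference of -0.13 overlapped (exact p = 0.3). SLC39A14 to SLC39A8 ran from 7.89 to 8.79 among control libraries, from 6.61 to 8.09 among CoCl2-tolerant ones and from 12.5 to 21.8 among low-glucose-tolerant ones, a log2 difference from control of 1.002 for the last (exact permutation p = 0.1) and -0.19 for the CoCl2-tolerant line (exact permutation p = 0.2). NCOA4 to FBXL5 differed from control by 0.18 in the CoCl2-tolerant line without overlap and by -0.17 in the low-glucose-tolerant line with overlap (exact permutation p = 0.1 and 0.4). Adjusted over the 12 ratio comparisons no p could pass 0.05.

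**Figure D4:**
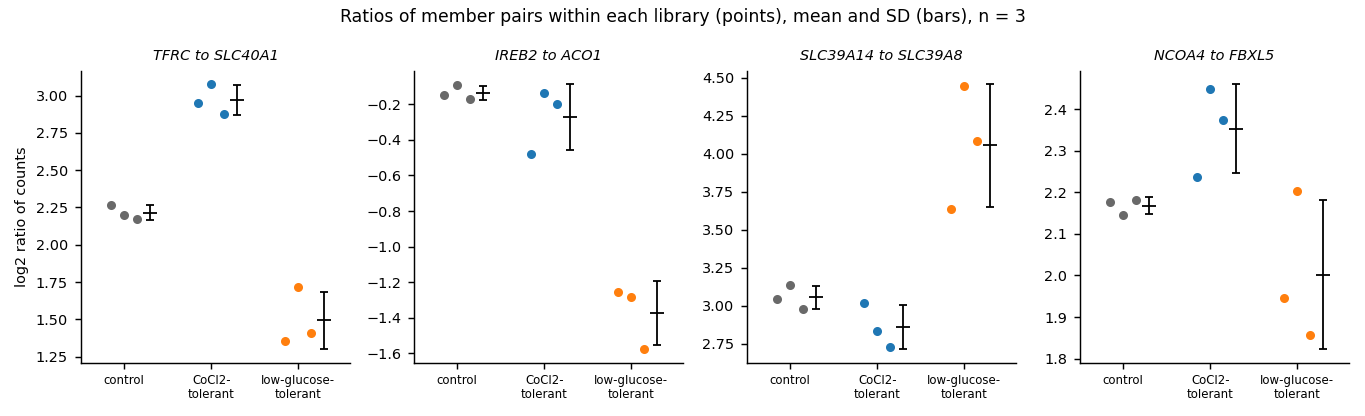
Log2 ratio of the counts of 2 genes within each library (y axis; points) in the 3 groups (x axis), with group mean and SD (n = 3), for 4 pairs. TFRC to SLC40A1 is above control in CoCl2-tolerant and below control in low-glucose-tolerant libraries, and IREB2 to ACO1 is low in the low-glucose-tolerant group only.

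The genes around each member on its chromosome were set beside it. Of all tested genes, 34.6% were called higher and 34.6% lower in the low-glucose-tolerant line, and 17.9% and 18.2% in the CoCl2-tolerant line. For IREB2 in the low-glucose-tolerant line, the 459 tested protein-coding genes of chromosome 15 had a median log2 fold change of -0.51, against 0.08 over all 13652, and the 20 nearest tested protein-coding genes (10 on either side) had a median of -0.45, with 11 called lower and 4 higher. IREB2 itself was at -1.34, which is 0.89 below that median. In the CoCl2-tolerant line the 20 neighbours of IREB2 had a median of -0.59 with 11 called lower and 0 higher, and IREB2, at -0.35, stood 0.24 above that median. The part of the region in either value was not tested.

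For SLC39A14 the 20 neighbours had a median of 0.57 in the low-glucose-tolerant line (14 higher, 3 lower), with the gene itself at 1.33. NCOA4, at -0.34, stood above its neighbours' median of -1.02 (12 lower, 5 higher). STEAP3 went against its surroundings, at 1.004 among neighbours with a median of -0.35 (11 lower, 4 higher). TFRC was at -0.70 among neighbours with a median of 0.11 (7 higher, 4 lower), which is near the 0.08 over all protein-coding genes. SLC39A8 (0.35 against a neighbours' median of -0.13) and SLC40A1 (0.02 against -0.20), neither of them called, lay on the other side of 0 from their neighbours' medians. In the CoCl2-tolerant line SLC40A1, at -0.65, was below its neighbours' median of -0.23 (7 lower, 4 higher).

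**Figure D5:**
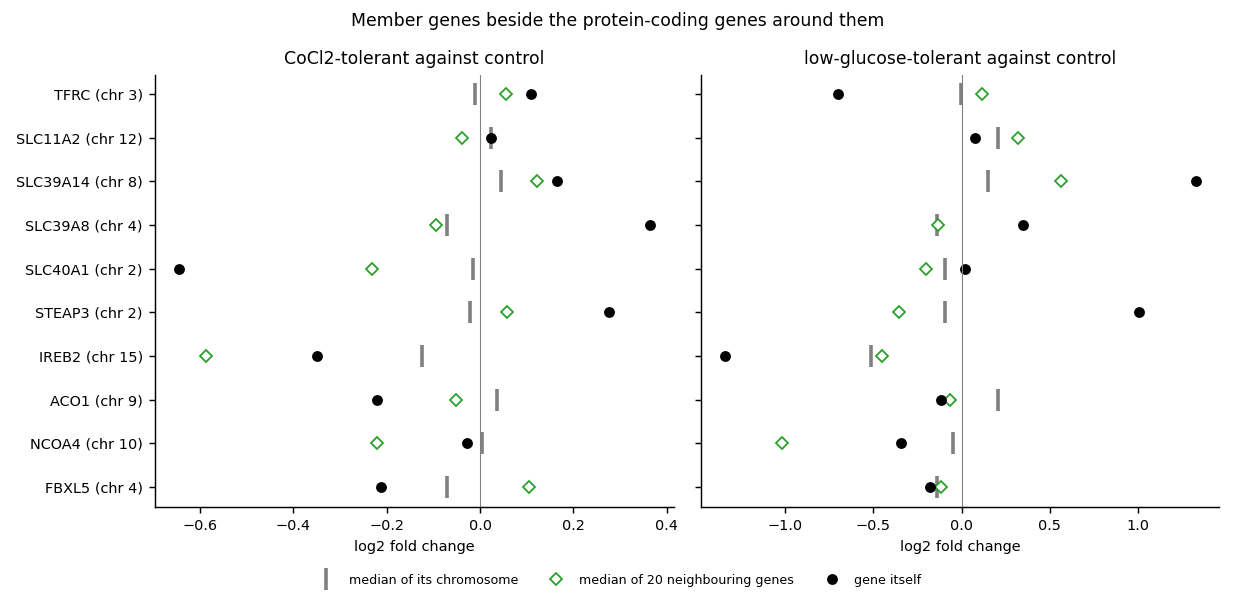
Log2 fold change (x axis) of each of the 10 genes (y axis; black points), of its 20 nearest tested protein-coding genes as a median (open diamonds) and of all tested protein-coding genes on its chromosome as a median (grey bars), for the CoCl2-tolerant (left) and low-glucose-tolerant (right) lines against control. The chromosome 15 median is -0.51 in the right panel. STEAP3 and TFRC lie on the other side of 0 from their neighbours there, as do SLC39A8 and SLC40A1, which were not called.

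Short sequences were searched on both strands in the 250 bases before the RefSeq start (GRCh38.p14) of the 9 genes with an entry. They were ACGTG (the hypoxia response core), TGACNNNGC (antioxidant response), TGCNCNC (a loose form of the metal response core) and CACGTG (E-box, which contains ACGTG). These letters stood in 18.5, 10.9, 49.1 and 6.34% of 35116 such windows. TFRC held ACGTG 88 bases before its start and TGCNCNC at 3 places, SLC40A1 held TGCNCNC at 2, IREB2 and NCOA4 held it at 2 each, and FBXL5 held all 4 motifs, of which the ACGTG, TGACNNNGC and CACGTG matches overlap and the 3 TGCNCNC matches overlap none of these. SLC11A2, SLC39A8, STEAP3 and ACO1 held none in this window. All the sites of the receptor and the exporter are shown with the motif in capitals, 5′ to 3′ on the minus strand, on which both genes lie:
TFRC, ACGTG, chr3:196082166-196082186: gcgagcgtACGTGcctcagga
TFRC, TGCNCNC, chr3:196082316-196082338: gaggccagTGCGCCCatcgcgcg
TFRC, TGCNCNC, chr3:196082216-196082238: ccgcccgcTGCGCGCgcatcccc
TFRC, TGCNCNC on the opposite strand, chr3:196082213-196082235: cccgctgcGCGCGCAtccccgcc
SLC40A1, TGCNCNC, chr2:189580958-189580980: tggacgctTGCGCCCggggtggg
SLC40A1, TGCNCNC on the opposite strand, chr2:189580909-189580931: acggcccgGCGCGCAaggttgac

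The genes most like a member across the 9 libraries were found by Pearson's correlation of log2 CPM among 11183 genes at a mean of at least 5 CPM. They are given as a description, since the points share the 3 groups. For TFRC they were GNPTAB (r = 0.997), the pseudogene ZNF731P (0.996) and PIK3R1 (0.993), and for SLC40A1 they were COCH (0.980), IRAK1BP1 (0.974) and SPIDR (0.974). For SLC39A14 they were PATZ1 (0.997), DCTN5 (0.997) and TCTN3 (0.996), and for IREB2 they were ATP13A3 (0.999), PHIP (0.998) and SLC12A2 (0.998). GNPTAB, which makes the lysosomal sorting tag, went from 126 ± 1.94 CPM in control to 143 ± 8.40 in CoCl2-tolerant and 64.4 ± 10.2 in low-glucose-tolerant libraries, and COCH from 15.4 ± 0.261 to 10.4 ± 0.937 and 16.8 ± 2.78 CPM (SD, n = 3 each).

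Other genes of iron handling were counted from fixed lists, beside the share of all tested genes given above. Of 22 further genes of iron uptake, reduction and circulation, 14 had enough counts. In the CoCl2-tolerant line 2 rose and 3 fell of 14 (35.7%; median log2 fold change -0.16 against 0.01 over all genes). TFR2, the second transferrin receptor, rose from 1.39 ± 0.319 to 3.67 ± 0.437 CPM (log2 fold change 1.40; edgeR's adjusted p = 1.11e-04), and the lysosomal channel MCOLN1 from 18.5 to 27.8 CPM (0.59; edgeR's adjusted p = 0.00205). The STEAP family genes STEAP2 (12.8 to 6.62 CPM, -0.95; edgeR's adjusted p = 0.00214) and STEAP1 (1.99 to 1.14 CPM, -0.80; edgeR's adjusted p = 0.0230) fell. The STEAP1 call was lost without control library 1 or 3 or CoCl2-tolerant library 3 (adjusted p 0.00740 to 0.0890 over the alternatives).

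Against control, 5 of these 14 rose in the low-glucose-tolerant line and 2 fell (50.0%; median 0.06 against -0.01), a count that was 3 and 1 of 15 without control library 2. LCN2, the siderophore-binding lipocalin, rose from 0.248 ± 0.0498 to 1.97 ± 0.569 CPM (log2 fold change 2.96; edgeR's adjusted p = 3.98e-06), and SLC22A17, a receptor for it, fell from 16.7 to 7.20 CPM (-1.22; edgeR's adjusted p = 2.25e-06). STEAP1 rose from 1.99 to 5.17 CPM (1.38; edgeR's adjusted p = 4.93e-05), as STEAP3 had, and TFR2 to 2.13 CPM (0.62; edgeR's adjusted p = 0.0167, lost without control library 2 or 3, at 0.00668 to 0.0748 over the alternatives). Set against the low-glucose-tolerant line, 3 were higher and 5 lower in CoCl2-tolerant cells, with LCN2 (-2.66), STEAP1 (-2.18), STEAP2 (-1.47) and SLC22A17 (0.98) the largest log2 fold changes.

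Among the genes of iron storage and delivery, the ferritin genes and HMOX1 rose in both lines. Of 13 tested genes 4 rose and 2 fell in the CoCl2-tolerant line (46.2%; median 0.07) and 7 rose and 3 fell in the low-glucose-tolerant line (76.9%; median 0.45). The ferritin chains, which store iron, went from 529 ± 52.8 CPM in control to 1530 ± 480.3 and 1792 ± 419 CPM for FTH1, and from 1550 ± 52.7 to 4214 ± 323 and 5811 ± 1042 CPM for FTL (SD, n = 3 each; log2 fold changes of 1.53 and 1.76, and of 1.44 and 1.91). The edgeR adjusted p for FTH1 was 5.45e-05 and 2.88e-06, and for FTL 1.53e-06 and 1.37e-08. Both have pseudogenes of near-identical sequence, so their counts are uncertain. HMOX1, which frees iron from heme, rose from 53.6 ± 1.19 to 1811 ± 180.0 and 1383 ± 309 CPM (edgeR's adjusted p = 4.92e-10 and 3.54e-11).

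Of the same list, SLC25A37 (mitoferrin), which brings iron into mitochondria, fell in both lines, from 173 CPM in control to 111 CPM in the CoCl2-tolerant and 116 CPM in the low-glucose-tolerant line (log2 fold changes -0.64 and -0.57; edgeR's adjusted p = 4.31e-04 and 2.76e-04). The heme exporter FLVCR1 also fell in both, from 21.3 to 15.3 and 9.47 CPM (-0.48 and -1.17; edgeR's adjusted p = 0.0150 and 4.31e-06). Directly compared, 2 of 13 were higher and 3 lower in CoCl2-tolerant cells (38.5%): HMOX2 (-1.32), PCBP2 (-0.62), an iron chaperone, and FTL (-0.46) were lower, and FLVCR1 (0.69) higher, on the log2 scale.

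Of the 25 iron-sulphur cluster assembly genes tested, 6 rose and 1 fell in the CoCl2-tolerant line (28.0%; median 0.26). The count of 7 called was 13 with only the 2 groups compared, 11 without low-glucose-tolerant library 2, and 4 without control library 1 or 2. In the low-glucose-tolerant line 17 rose and 1 fell (72%, beside 69.2% of all genes; median 0.62), where 34.6% of all genes rose and 34.6% fell. Against that line 16 were lower and 2 higher in CoCl2-tolerant cells (72%; median -0.50), where 32.0% of all genes were lower and 31.9% higher. FDXR, which feeds electrons to the assembly ferredoxins, rose from 57.6 ± 3.93 CPM in control to 126 ± 18.9 and 217 ± 40.1 CPM (log2 fold changes 1.13 and 1.91; edgeR's adjusted p = 3.78e-05 and 3.88e-08). The scaffold ISCU rose from 98.2 ± 2.998 to 145 ± 8.86 and 267 ± 43.2 CPM (0.56 and 1.45; edgeR's adjusted p = 0.00262 and 1.22e-07), and IBA57 from 5.34 to 8.72 and 13.0 CPM (0.71 and 1.28; edgeR's adjusted p = 0.00157 and 1.60e-06). ISCA1 rose in both lines (0.67 and 0.53; edgeR's adjusted p = 0.00169 and 0.00323), as did CIAPIN1, of the cytosolic branch, from 31.3 to 40.6 and 88.1 CPM (0.37 and 1.49; edgeR's adjusted p = 0.0234 and 6.33e-08). CIAPIN1 (-1.12), FDX1 (-1.04), ISCU (-0.88) and LYRM4 (-0.87) had the largest log2 differences between the tolerant lines.

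The 3 partners that make FBXL5 a working ubiquitin ligase were all called higher in the CoCl2-tolerant line: SKP1 (log2 fold change 0.47; edgeR's adjusted p = 0.0164), RBX1 (0.40; 0.0469) and CUL1 (0.36; 0.00887). These calls depended on single libraries: 0 of 3 passed without control library 2, and 1 of 3 without control library 1 or 3 or CoCl2-tolerant library 3. Only 1 of 3 passed in the low-glucose-tolerant line, CUL1, from 57.9 ± 2.29 to 98.2 ± 2.66 CPM (0.76; edgeR's adjusted p = 6.60e-06), and 2 of 3 without low-glucose-tolerant library 3 or with scaling by library totals. In the direct comparison RBX1 (0.72) and SKP1 (0.64) were higher and CUL1 (-0.40) lower in CoCl2-tolerant cells. The partners serve many ligases of this class.

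Among 9 other tested ZIP carriers, 1 rose and 1 fell in the CoCl2-tolerant line (22.2%; median -0.06), SLC39A13 from 60.6 to 88.5 CPM (log2 fold change 0.55; edgeR's adjusted p = 0.00183) and SLC39A10 from 82.7 to 50.6 CPM (-0.71; edgeR's adjusted p = 7.65e-04). Of the 9, 3 rose and 4 fell in the low-glucose-tolerant line (77.8%; median 0.13). SLC39A10 fell further, to 32.3 ± 5.35 CPM (-1.35; edgeR's adjusted p = 4.47e-07), and SLC39A1 fell (-0.85; edgeR's adjusted p = 0.00359), whereas SLC39A11 rose from 8.70 to 20.5 CPM (1.24; edgeR's adjusted p = 2.61e-07) and the zinc importer SLC39A4 from 14.4 to 24.3 CPM (0.75; edgeR's adjusted p = 6.99e-04). Between the tolerant lines 3 were higher and 2 lower in CoCl2-tolerant cells (55.6%), among them SLC39A11 (-1.07), SLC39A4 (-1.05), SLC39A6 (0.66) and SLC39A10 (0.65) on the log2 scale.

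Of 6 other tested genes whose transcripts have a textbook iron-responsive element, 4 rose and 1 fell in the CoCl2-tolerant line (83.3%, median 0.46). That count was 2 and 1 without any 1 of the control libraries. The letters searched for above were found in neither UTR of EPAS1 or CDC42BPA. Beside FTH1 and FTL, EPAS1, which encodes HIF-2 alpha, rose from 519 ± 2.44 to 711 ± 36.8 CPM (log2 fold change 0.45; edgeR's adjusted p = 0.0170), CDC42BPA rose from 113 to 155 CPM (0.46; edgeR's adjusted p = 0.0258, and 4.27e-04 to 0.0878 over the alternatives) and CDC14A fell from 7.90 to 4.64 CPM (-0.76; edgeR's adjusted p = 0.00492). The low-glucose-tolerant line had 3 of 6 higher and 0 lower (50.0%; median 0.42), FTH1 and FTL among them. Between the tolerant lines EPAS1 (0.61) was higher and CDC14A (-0.58) and FTL (-0.46) were lower in CoCl2-tolerant cells on the log2 scale, the CDC14A call being lost without CoCl2-tolerant library 1 (edgeR's adjusted p = 0.0518, and 0.00194 to 0.0518 over the alternatives). TFRC and SLC40A1, the members in which the search found the element, each changed in 1 line: TFRC fell in the low-glucose-tolerant line, and SLC40A1 fell in the CoCl2-tolerant line.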

How the data were processed

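RNA of 9 HCT-15 libraries was measured by mRNA sequencing. The deposited values are raw counts per Ensembl gene, 1 table per library, with no normalization by the authors. The submitters' processing notes name featureCounts, DESeq2 and the build GRCh38. For the aligner, annotation release, strand setting and handling of reads with several matches, the answer is not given in the sources used here. Symbols were found for 36014 of 36018 genes. Exon lengths, neighbours and UTRs came from GENCODE 29 (GRCh38).

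Counts of all 9 libraries were fitted with 1 mean per group in edgeR 4.0.16 (R 4.3.3). The steps were filterByExpr, TMM, the quasi-likelihood F test and Benjamini-Hochberg over 17902 genes, with a threshold of 0.05. The fit was tested beforehand on simulated data with the same spread in every group, so unequal spread between groups was not tried. A standard error is the unshrunk log2 fold change divided by the square root of F. The members and lists were chosen with earlier results of these data known. All members are named, and from each other list at most 4 genes per comparison with the largest changes among those called and at 1 CPM or more in the higher group. From each of TFRC, SLC40A1, SLC39A14 and IREB2 the 3 genes of most like pattern are named. EPAS1 in the CoCl2-tolerant line and SLC30A3 were named after their values were seen. Outside this rule, values are also given for SLC25A37 and ISCA1 in the low-glucose-tolerant line and for FLVCR1 and CIAPIN1 in the CoCl2-tolerant line. These genes met the rule in another comparison. Listed genes without a row in the tables were not analysed here, and 1 listed gene is counted but not reported by name. Alternatives were the DESeq2 1.42.0 test, other scalings, other filters, only 2 groups, a replicate block and leaving out each library. The planned comparison of protein sequences was not run. A library's floor of 3 counts was 0.0918 to 0.119 CPM, and such limits cover counting error only.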

Additional observations from a re-analysis of the deposited data

How the results depend on the processing

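The numbers of genes called stayed within 1.5 times in all 51 alternative counts, and 471 of 510 member values kept direction and side of the threshold. In the CoCl2-tolerant line against control, 1 of 10 members passed (36.1% of all tested genes did). It was 2 with no filter on low counts (18.9% of all genes) and 2 with the stricter filter, 5 CPM in 3 libraries (40.6%). With only the 2 groups compared 6 passed (49.4%), and 1 to 5 when single libraries were left out (43.3% where 5 passed). Values near 0 turned sign. For SLC11A2 the range over left-out libraries was -0.015 to 0.073 in CoCl2 against control (lowest without CoCl2-tolerant library 2), and with library totals and the stricter filter the value was -0.025 and -0.022 in low glucose against control and 0.039 and 0.032 in the direct comparison. NCOA4 in CoCl2 against control ranged from -0.057 to 0.021 (highest without CoCl2-tolerant library 1). SLC40A1 in low glucose was -0.0784 with library totals and -0.0779 with the stricter filter, and -0.083 to 0.086 over left-out libraries (lowest without low-glucose-tolerant library 1). Between the tolerant lines SLC39A8 was -0.00791 with no filter and -0.106 to 0.218 over left-out libraries, negative without CoCl2-tolerant library 3 or low-glucose-tolerant library 2 or 3. FBXL5 was 0.0558 and 0.048 with library totals and the stricter filter, and -0.097 to 0.0102 over left-out libraries (highest without low-glucose-tolerant library 1). The causes were not tested. FBXL5 in low glucose also passed with the stricter filter, at -0.27.

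The replicate numbers were not taken to pair libraries: deviations of same-numbered libraries correlated at -0.595 to 0.324, those of different numbers at -0.677 to 0.586, and 1 of 9 libraries correlated best with its own number. With the replicate number as a block, 6091, 12118 and 11135 genes were called (6459, 12394 and 11440 without it), and 1, 5 and 6 members, with no member's call changed. All 84 alternative ratio values kept their direction. With the stricter filter 6 of the 14 uptake genes were left, and 3, 2 and 4 of them passed (5, 7 and 8 before). In low glucose 0 of these 6 rose and 2 fell (5 rose and 2 fell before), so genes that stayed in also lost their calls. The cause was not tested. The stricter filter also gave 2 of 3 ligase partners in low glucose. Only 2 groups gave 3 genes of the zinc and manganese exporter list between the tolerant lines (5 before).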

Other observations

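Copper transport, which shares the STEAP reductases and some carriers with iron, moved in parts. Of 6 tested genes 2 rose and 2 fell in the CoCl2-tolerant line (66.7%; median log2 fold change 0.08): the copper importer SLC31A1 rose from 54.98 ± 2.92 to 71.97 ± 3.12 CPM (SD, n = 3 each; 0.39; edgeR's adjusted p = 0.00775) and COMMD1 rose (0.53; edgeR's adjusted p = 0.0233), while the exporting ATPases ATP7B (14.1 to 7.06 CPM, -0.997; edgeR's adjusted p = 6.34e-04) and ATP7A (-0.57; edgeR's adjusted p = 0.0482) fell. The ATP7A call was lost in 8 of 17 alternatives (adjusted p 0.00443 to 0.167): with library totals, without mitochondrially encoded genes, and without control library 1, 2 or 3, CoCl2-tolerant library 1 or 3 or low-glucose-tolerant library 1. The count of 4 was 2 without control library 2 or CoCl2-tolerant library 1 or 3, and 1 without control library 3. The low-glucose-tolerant line had 1 gene higher and 2 lower (50.0%; median -0.13): SLC31A1 rose to 105 ± 5.51 CPM (0.94; edgeR's adjusted p = 1.27e-06), and ATP7A (-0.96; edgeR's adjusted p = 0.00125) and ATP7B (-0.86; edgeR's adjusted p = 5.09e-04) fell. Between the tolerant lines SLC31A1 was the 1 gene called of 6, lower in CoCl2-tolerant cells (-0.55; edgeR's adjusted p = 2.41e-04), and leaving out single libraries gave up to 2.

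The list of zinc and manganese exporters also holds genes, ATP13A1 among them, that are not established exporters of these metals. Of its 10 tested genes 0 rose and 1 fell in the CoCl2-tolerant line (10.0%, median 0.04), SLC30A3, a gene under 1 CPM in every group. The low-glucose-tolerant line had 3 higher and 2 lower (50.0%; median -0.06). SLC30A7, a Golgi zinc carrier, rose from 20.4 ± 0.245 to 39.7 ± 8.98 CPM (0.96; edgeR's adjusted p = 2.26e-04), SLC30A1, the plasma membrane zinc exporter, from 72.8 to 103 CPM (0.50; edgeR's adjusted p = 0.00655) and ATP13A1 by 0.36 (edgeR's adjusted p = 0.0170, and 0.00186 to 0.0692 over the alternatives, lost without control library 1 or 2, with library totals and with the stricter filter). TMEM165, a Golgi protein of manganese supply, fell from 97.6 to 72.8 CPM (-0.42; edgeR's adjusted p = 0.00162). Between the tolerant lines 2 were higher and 3 lower in CoCl2-tolerant cells (50.0%), with SLC30A7 (-1.15), SLC30A1 (-0.52), TMEM165 (0.42) and ATP13A1 (-0.35) the largest on the log2 scale; this count of 5 was 3 without CoCl2-tolerant library 2 or 3 or low-glucose-tolerant library 3.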
